A study of Mus with 6 samples.

Results

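Expression of 10 genes of the Nrf2 antioxidant response was examined in pancreatic tumors grown in obese and in lean mice. The genes were given as a list of Ensembl IDs with symbols: Nfe2l2 and Keap1, which encode the regulators, and Nqo1, Hmox1, Gclc, Gclm, Txnrd1, Slc7a11, Srxn1 and Gpx4, which encode enzymes and a transporter. Each of the 10 was found among the 15646 genes of the deposited count table, and each passed the filter on low counts, which left 14348 genes. The tumors grew from KPC1199 cells placed in the pancreas. KPC1199 is a mouse pancreatic ductal adenocarcinoma line. Both groups received this same line, so they share the tumor genotype and differ in the host. The obese group consisted of 3 libraries (obese 1, 3 and 4) from ob/ob mice, which lack working leptin and grow obese. The lean group consisted of 3 libraries (lean 1, 2 and 3) taken to be from wild-type mice. Their titles carry the code ND, which the labels do not spell out. In this design, obesity and loss of leptin cannot be told apart. The sources used here give neither the age or sex of the mice nor whether each library came from a separate mouse. The p-values therefore reflect only the spread among these libraries, part of which may be technical.

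Nrf2, the protein encoded by Nfe2l2, is a transcription factor that switches on genes of antioxidant defense. In unstressed cells Keap1 holds Nrf2 and hands it to a ubiquitin ligase for degradation. Oxidants and electrophiles modify cysteines of Keap1, and Nrf2 then accumulates, pairs with small Maf proteins and binds antioxidant response elements near its target genes. Because Nrf2 is controlled largely through the stability of the protein, the level of its own mRNA is not a measure of its activity.

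The libraries held 7791756 to 8419274 counts in the obese group and 7122533 to 8521244 in the lean group, and between 8952 and 11546 of the counts in a library fell on the 10 genes. Libraries of the groups lay on opposite sides of the first principal component of log2 expression, which carried 54.1% of the variance, and obese 3 stood apart from the other 5 libraries on the second. Levels are given as CPM, a gene's counts relative to the library total, with that total adjusted by TMM factors. Counts were not divided by transcript length, so CPM values are compared between libraries and not between genes. Markers of ductal, stromal and immune cells were not looked up, because the counts are listed by Ensembl ID and 0 of the 49997 rows of the RefSeq gene table used here carry one. In such bulk tissue, fewer cells of a type and less RNA per cell cannot be told apart.

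The mRNA of the regulator and that of several of its targets differed in opposite directions. Nfe2l2 was higher in the tumors of obese mice, whereas Gclc, Gclm and Txnrd1, which serve glutathione synthesis and the thioredoxin system, were lower. Thus 1 of the 10 genes rose and 3 fell in edgeR's quasi-likelihood test (p adjusted by Benjamini-Hochberg across every gene in the fit, threshold 0.05), and 6 did not pass. Among all genes tested, 20.8% were called changed, 10.3% higher and 10.6% lower in obese hosts. With total counts only in place of TMM factors, the split over all genes was 1797 higher and 1170 lower, against 1474 higher and 1517 lower with TMM, and 1 of the 10 genes was called higher and 2 lower. The median log2 fold change was -0.27 over the 10 genes and 0.01 over all genes tested. The number of the 10 genes that were called fell to 2 when obese 1, lean 1 or lean 2 was left out. Calls over all genes were fewer in these fits too, at 9.92% without obese 1, 17.8% without lean 1 and 7.99% without lean 2.

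**Figure D1:**
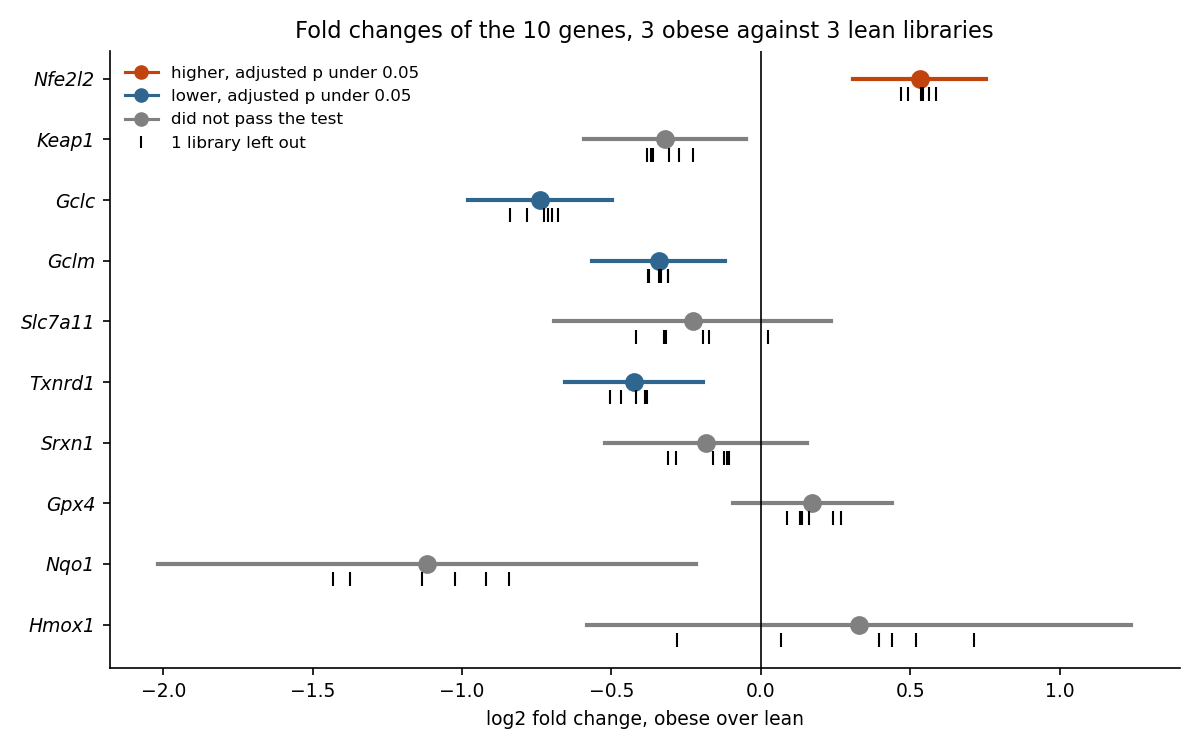
Log2 fold change of each gene in obese over lean tumors (x axis), with circles for the fit on 3 obese and 3 lean libraries, horizontal bars for its 95% confidence interval and small ticks for the fits that leave out 1 library each. In every such fit Nfe2l2 and Gpx4 lie right of 0, and Keap1, Nqo1, Gclc, Gclm, Txnrd1 and Srxn1 lie left of 0. The fits of Hmox1 and Slc7a11 fall on both sides of 0. The intervals of Hmox1, Slc7a11, Srxn1 and Gpx4 include 0.

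Of the regulators, Nfe2l2 (ENSMUSG00000015839.6) was the gene that rose. It lies on chromosome 2 from 75675513 to 75704663 (GRCm38, RefSeq gene table). Its level was 191 CPM in obese 1, 175 in obese 3 and 178 in obese 4, against 127 CPM in lean 1, 115 in lean 2 and 135 in lean 3. All obese libraries were above all lean libraries. The mean was 181 ± 8.38 CPM in obese and 125 ± 10.3 CPM in lean tumors (SD, n = 3 each), a difference of 44.6% in the fit. The log2 fold change was 0.53 with a standard error (SE) of 0.10 (edgeR adjusted p = 0.00668). It was called under each of the 13 alternatives tried, at log2 fold changes of 0.47 to 0.59 and adjusted p of 0.000403 to 0.0377.

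Keap1 (ENSMUSG00000003308.15), which encodes the adaptor that marks Nrf2 for degradation, did not pass the test. It lies on chromosome 9 from 21229730 to 21239332. Keap1 stood at 52.1 CPM in obese 1, 42.9 in obese 3 and 51.6 in obese 4, against 55.9 CPM in lean 1, 65.0 in lean 2 and 62.2 in lean 3. The groups did not overlap, with obese 1 and lean 1 closest to each other. The mean was 48.9 ± 5.15 CPM in obese and 61.0 ± 4.67 CPM in lean tumors (SD, n = 3 each). The log2 fold change was -0.32 (SE 0.12, 95% confidence interval -0.59 to -0.05), with an unadjusted p = 0.0250 and an edgeR adjusted p = 0.0876. Over the alternatives the adjusted p ranged from 0.0797 to 0.226.

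**Figure D2:**
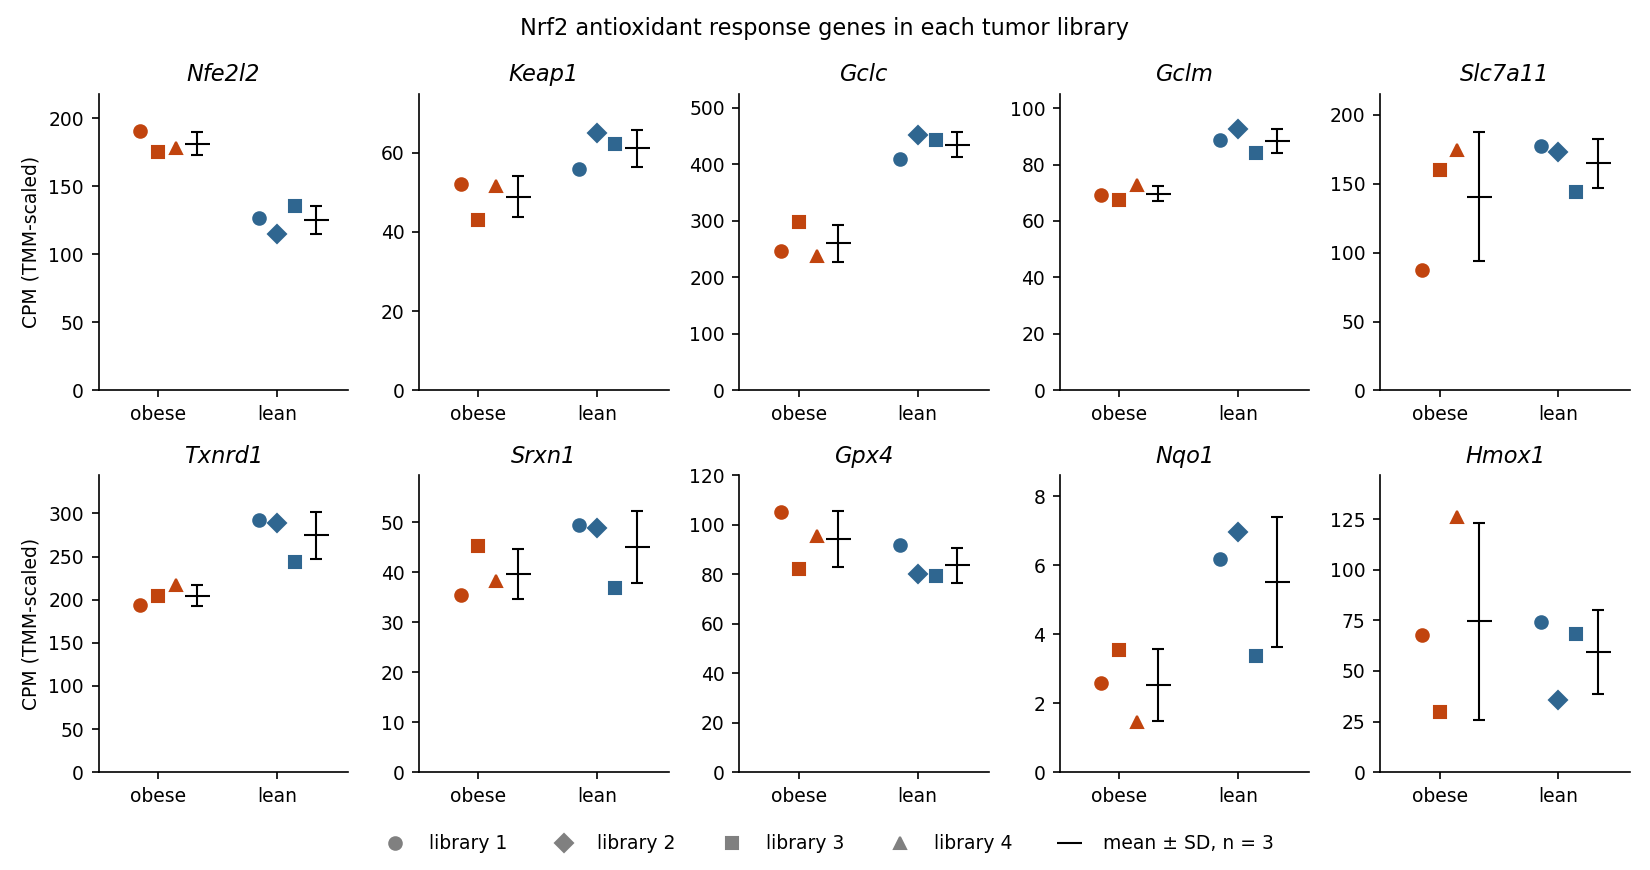
TMM-scaled CPM (y axis, from 0, scaled per gene) of the 10 genes in 3 obese (left) and 3 lean (right) libraries, with 1 point per library, its number shown by the marker shape, and the mean ± SD beside each group. Nfe2l2 is higher and Keap1, Gclc, Gclm and Txnrd1 are lower in every obese than in every lean library, and the points of the other 5 genes overlap between groups.

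Glutathione synthesis begins with glutamate-cysteine ligase, whose catalytic subunit is encoded by Gclc and whose modifier subunit is encoded by Gclm; both fell. Gclc (ENSMUSG00000032350.9, chromosome 9 from 77754535 to 77794489) had 246 CPM in obese 1, 298 in obese 3 and 238 in obese 4, against 409 CPM in lean 1, 452 in lean 2 and 443 in lean 3. The highest obese library, obese 3, was well below the lowest lean one. The mean was 260.3 ± 32.5 CPM in obese and 435 ± 22.6 CPM in lean tumors (SD, n = 3 each), so that expression was lower by a log2 fold change of -0.74 (SE 0.11, edgeR adjusted p = 0.00277), or 1.67-fold higher in lean than in obese tumors. This call held under each of the 13 alternatives, at log2 fold changes of -0.84 to -0.65 and an adjusted p of at most 0.0198.

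Gclm (ENSMUSG00000028124.15, chromosome 3 from 122245487 to 122267215) had 69.1 CPM in obese 1, 67.4 in obese 3 and 72.6 in obese 4, against 88.7 CPM in lean 1, 92.4 in lean 2 and 84.0 in lean 3. The groups did not overlap, and within each group the libraries lay close together. The mean was 69.7 ± 2.68 CPM in obese and 88.4 ± 4.24 CPM in lean tumors (SD, n = 3 each). Its log2 fold change was -0.34 (SE 0.10, edgeR adjusted p = 0.0363). The call was near the threshold: it was lost whichever library was left out, at adjusted p of 0.0660 to 0.111, and with total counts only (adjusted p = 0.0725). In all, 8 of the 13 alternatives ended the call, at adjusted p of up to 0.135, while the log2 fold change stayed between -0.38 and -0.28. In RefSeq, the spans of a lncRNA (Gm46822) and a pseudogene (Gm6061) overlap that of Gclm. Whether their exons overlap was not examined, and the sources used here do not say how the authors handled strand. Any mixing of their reads with those of Gclm was therefore not tested.

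Slc7a11 (ENSMUSG00000027737.10, chromosome 3 from 50364936 to 50499087) encodes the transport subunit of the cystine-glutamate antiporter, which supplies the cysteine for glutathione. It had 87.3 CPM in obese 1, 160 in obese 3 and 174 in obese 4, against 177 CPM in lean 1, 173 in lean 2 and 144 in lean 3. Obese 1 stood below the other 5 libraries, which overlapped. The mean was 141 ± 46.7 CPM in obese and 165 ± 18.0 CPM in lean tumors (SD, n = 3 each), and the gene did not pass the test (log2 fold change -0.23, SE 0.21, edgeR adjusted p = 0.468). Without obese 1 the log2 fold change was 0.023 (adjusted p = 0.931; 0.151 to 0.931 over the alternatives). The 95% confidence interval of its fold, 0.619 to 1.18, includes a decrease of the size fitted for Gclm or Txnrd1.

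Ratios of genes counted in the same library do not depend on how libraries are scaled. They were chosen after the values had been seen and are given as a description; since transcript lengths differ, only their change between libraries can be read. There were 3.67 counts of Nfe2l2 per count of Keap1 in obese 1, 4.08 in obese 3 and 3.45 in obese 4, against 2.27 in lean 1, 1.76 in lean 2 and 2.17 in lean 3. The mean ratio was 3.73 ± 0.323 in obese and 2.07 ± 0.268 in lean tumors (SD, n = 3 each). Nfe2l2 was higher and Keap1 lower in every obese than in every lean library. The separation of their ratio therefore follows from those levels and adds no separate evidence. The log2 difference of the Nfe2l2 to Keap1 ratio was 0.86 (SE 0.13), and it was 0.75 to 0.93 when 1 library was left out. The 2 subunits of glutamate-cysteine ligase differed unequally: the Gclc to Gclm ratio was 3.56 in obese 1, 4.41 in obese 3 and 3.27 in obese 4, against 4.61 in lean 1, 4.88 in lean 2 and 5.28 in lean 3. Here obese 3 was close to lean 1. The mean Gclc to Gclm ratio was 3.75 ± 0.594 in obese and 4.93 ± 0.335 in lean tumors (SD, n = 3 each), a log2 difference of -0.40 (SE 0.14; -0.53 to -0.31 when 1 library was left out).

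**Figure D3:**
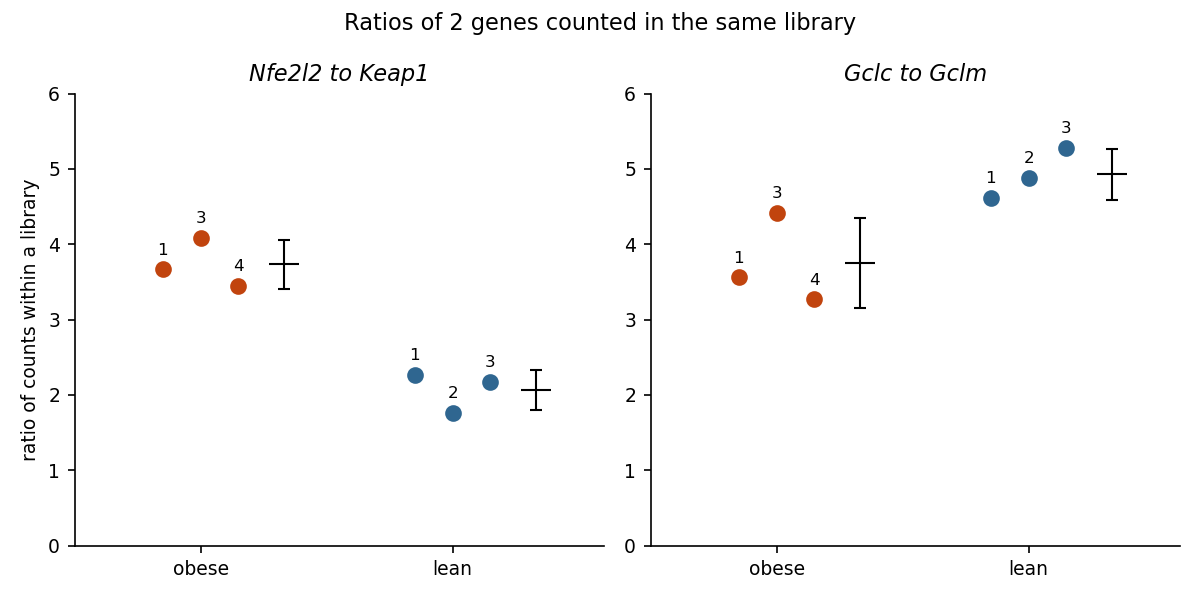
Counts of Nfe2l2 per count of Keap1 and of Gclc per count of Gclm within each library (y axis), for 3 obese (left) and 3 lean (right) libraries labelled by number, with the mean ± SD of each group. The Nfe2l2 to Keap1 ratio is 3.45 or more in the obese and 2.27 or less in the lean libraries, and the Gclc to Gclm ratio is 4.41 or less in the obese and 4.61 or more in the lean libraries.

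Among the thioredoxin and peroxide enzymes, Txnrd1 fell, and Srxn1 and Gpx4 did not pass the test. Txnrd1 (ENSMUSG00000020250.10, chromosome 10 from 82833951 to 82897724) encodes cytosolic thioredoxin reductase, a selenoprotein that uses NADPH to keep thioredoxin reduced. It had 193 CPM in obese 1, 204 in obese 3 and 217 in obese 4, against 292 CPM in lean 1, 289 in lean 2 and 243 in lean 3. The groups did not overlap, and lean 3 was the lean library nearest to the obese ones. The mean was 205 ± 11.7 CPM in obese and 275 ± 27.1 CPM in lean tumors (SD, n = 3 each). Its log2 fold change was -0.42 (SE 0.10, edgeR adjusted p = 0.0186).

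The call of Txnrd1 was lost without obese 1 (adjusted p = 0.0746), without lean 1 (adjusted p = 0.0519) and without lean 2 (adjusted p = 0.0749). Over all alternatives the adjusted p was 0.00578 to 0.0749 and the log2 fold change -0.51 to -0.37. In RefSeq, the spans of the protein-coding gene Eid3 and of a lncRNA (Gm38560) overlap that of Txnrd1. Here too exon overlap was not examined, so any mixing of reads was not tested.

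Srxn1 (ENSMUSG00000032802.8, chromosome 2 from 152105524 to 152111376) encodes sulfiredoxin, which restores over-oxidised peroxiredoxins. It had 35.4 CPM in obese 1, 45.3 in obese 3 and 38.3 in obese 4, against 49.4 CPM in lean 1, 48.8 in lean 2 and 36.8 in lean 3. The groups overlapped, with lean 3 inside the obese range. The mean was 39.6 ± 5.07 CPM in obese and 45.0 ± 7.12 CPM in lean tumors (SD, n = 3 each; log2 fold change -0.18, SE 0.15, edgeR adjusted p = 0.421), and the 95% confidence interval of the fold was 0.697 to 1.11.

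Gpx4 (ENSMUSG00000075706.10, chromosome 10 from 80047166 to 80056439) encodes the selenoprotein that reduces lipid peroxides in membranes and protects cells from ferroptosis, with glutathione as its reductant. Its values were 105 CPM in obese 1, 82.3 in obese 3 and 95.7 in obese 4, against 91.9 CPM in lean 1, 80.1 in lean 2 and 79.2 in lean 3. Obese 3 lay among the lean libraries. The mean was 94.4 ± 11.4 CPM in obese and 83.7 ± 7.07 CPM in lean tumors (SD, n = 3 each; log2 fold change 0.17, SE 0.12, edgeR adjusted p = 0.330, fold interval 0.937 to 1.35). The RefSeq table lists 2 pseudogenes named after Gpx4. Their sequences were not compared with that of Gpx4, so any sharing of reads with them was not tested.

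The quinone and heme enzymes showed the widest spread between libraries of the 10 genes, and neither passed the test. Nqo1 (ENSMUSG00000003849.8, chromosome 8 from 107388225 to 107403205) encodes a quinone reductase and is a classical Nrf2 target. It was scarce, with 22 counts in obese 1, 29 in obese 3 and 12 in obese 4, against 52 counts in lean 1, 49 in lean 2 and 27 in lean 3. These correspond to 2.58, 3.55 and 1.45 CPM in the obese and to 6.17, 6.96 and 3.38 CPM in the lean libraries, so lean 3 and obese 3 overlapped. The 12 counts of obese 4 carry a 95% Poisson interval of 6.20 to 21.0 counts, which covers counting error only.

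The mean of Nqo1 was 2.53 ± 1.05 CPM in obese and 5.50 ± 1.88 CPM in lean tumors (SD, n = 3 each). Its log2 fold change, -1.12, was the lowest of the 10, but its SE was 0.41 and the unadjusted p = 0.0195 gave an edgeR adjusted p = 0.0743. Without obese 3 the log2 fold change was -1.43 and passed the test (adjusted p = 0.0446). Over the 13 alternatives the log2 fold change ranged from -1.43 to -0.61 and the adjusted p from 0.0446 to 0.440. The 95% confidence interval of the fold was 0.247 to 0.860.

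Hmox1 (ENSMUSG00000005413.8, chromosome 8 from 75093618 to 75100593) encodes heme oxygenase-1, which degrades heme to biliverdin, iron and carbon monoxide, and is also strongly expressed in macrophages that clear red cells. It had 68.0 CPM in obese 1, 29.5 in obese 3 and 126 in obese 4, against 74.0 CPM in lean 1, 35.5 in lean 2 and 68.1 in lean 3. Both groups held 1 low library, and obese 4 was the highest of the 6. With 241 to 1044 counts per library, counting error was small beside this spread: the 95% Poisson interval was 25.9 to 33.5 CPM in obese 3 and 118 to 134 CPM in obese 4.

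The mean of Hmox1 was 74.5 ± 48.6 CPM in obese and 59.2 ± 20.7 CPM in lean tumors (SD, n = 3 each; log2 fold change 0.33, SE 0.41, edgeR adjusted p = 0.601). Without obese 4 the sign turned (log2 fold change -0.28, adjusted p = 0.625). Over the 13 alternatives the log2 fold change ranged from -0.64 to 0.71 and the adjusted p from 0.0384 to 0.941, and the 1 alternative that passed the threshold was at -0.64, with the sign turned. The 95% confidence interval of the fold, 0.668 to 2.36, includes both lower and higher levels in obese tumors. Macrophage and red cell markers were not looked up, so their part in the spread of Hmox1 was not tested.

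Across the 10 genes, the called ones were also those that varied least between libraries by edgeR's estimate. Spread between libraries enters the test, so genes with less of it are called more readily. The biological coefficient of variation, edgeR's estimate of the spread between libraries beyond counting error, was 10.3% for Nfe2l2, 10.9% for Gclc, 10.3% for Gclm and 10.6% for Txnrd1, against a median of 16.0% over all genes tested. Of the genes that did not pass the test, Keap1 and Gpx4 were close to the called ones, at 11.8% each. Srxn1 was at 14.1% and Slc7a11 at 18.8%. The estimate was 30.6% for Nqo1 and 35.2% for Hmox1, higher than in 89.2% and 94.4% of all genes tested. The groups did not overlap for 5 of the 10 genes, 1 higher and 4 lower in obese tumors. Among all genes tested this was so for 40.3%, 20.3% higher and 20.0% lower.

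Most of the 10 differences were moderate in size. The fold change of Gclc was larger, in either direction, than that of 82.7% of all genes tested, and the corresponding share was 71.2% for Nfe2l2, 62.0% for Txnrd1 and 53.2% for Gclm. Of the genes that did not pass the test, Nqo1 had a share of 92.8%, Hmox1 51.5% and Keap1 50.5%. Slc7a11 had 38.1%, Srxn1 31.2% and Gpx4 29.6%. The median absolute log2 fold change was 0.34 over the 10 genes and 0.32 over all genes.

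Together the 10 genes took 0.106% of all counts in obese 1, 0.116% in obese 3 and 0.119% in obese 4, against 0.135% in lean 1, 0.134% in lean 2 and 0.125% in lean 3. The shares did not overlap between the groups, with obese 4 and lean 3 nearest to each other. This separation was lost without Gclc. The share was then 0.0814%, 0.0851% and 0.0953% in obese 1, 3 and 4. In lean 1, 2 and 3 it was 0.0951%, 0.0895% and 0.0820%. The remaining 9 genes thus gave overlapping sums. These sums mix Nfe2l2, which was higher in obese tumors, with Gclm and Txnrd1, which were lower, so their overlap does not speak for each gene.

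**Figure D4:**
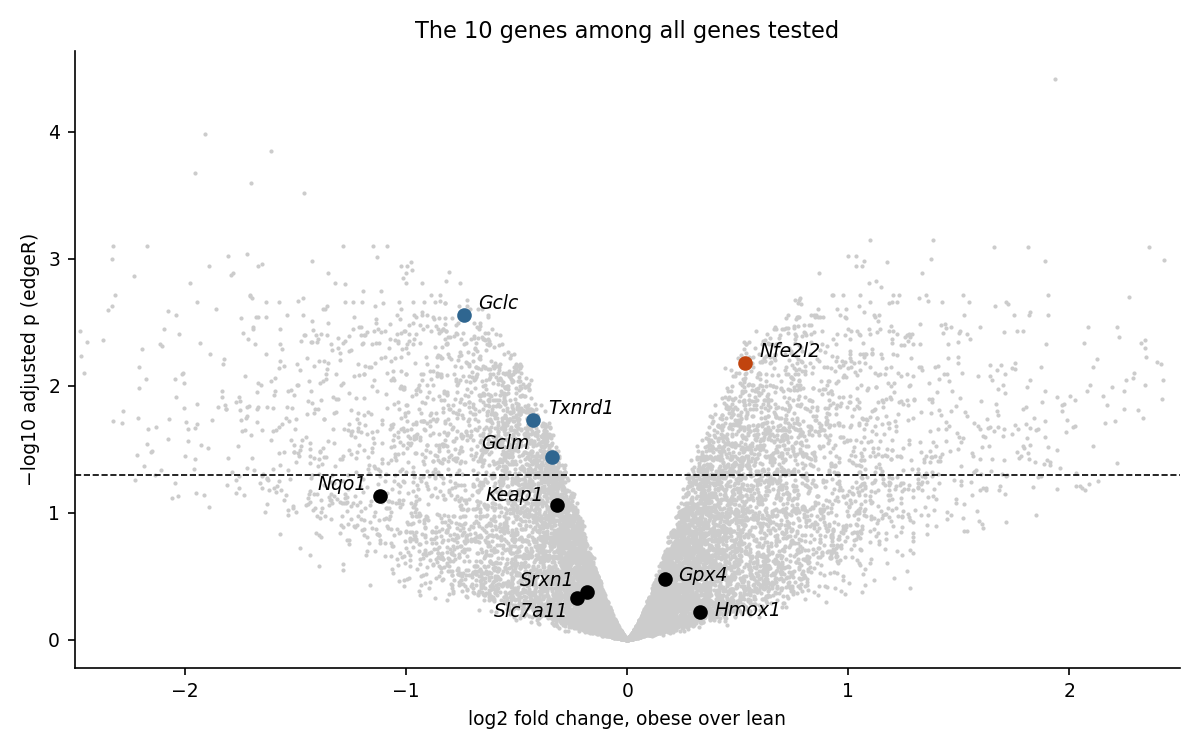
Log2 fold change in obese over lean tumors (x axis) against −log10 of the edgeR adjusted p (y axis) for all 14348 genes tested (grey) and the 10 genes (labelled), with the dashed line at an adjusted p of 0.05; 94 genes lie outside the x axis. Nfe2l2 lies above the line on the right, Gclc, Txnrd1 and Gclm lie above it on the left, and the other 6 genes lie below it.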

How the data were processed

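Total RNA of pancreatic tumors was extracted with QIAzol and a column kit and sequenced after depletion of ribosomal RNA, per the labels' protocols. The authors deposited a table of raw counts, 1 row per gene and 1 column for each of 6 libraries. The build GRCm38 and the tools CASAVA, STAR and Subread appear in the submitters' processing notes; the sources used here do not state versions, settings or how strand was handled. The lowest sum of a row is 11, so scarce genes had been removed. Titles starting with OB were taken as ob/ob hosts and those starting with ND as lean hosts, the other kind of mouse the design text names.

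Counts were analysed here with edgeR 4.0.16 (R 4.3.3): expression filter at its defaults (minimum count 10, minimum total 15), TMM factors, and a two-sided quasi-likelihood F test without covariates, adjusted by Benjamini-Hochberg over 14348 genes. The SE is the log2 fold change divided by the square root of F. The script was tested on simulated counts. Alternatives were other library factors (RLE, upper quartile, or none, that is, total counts), no expression filter, DESeq2 1.42.0, limma-voom (limma 3.58.1), a replicate block and leaving out each library. All 10 genes are reported whatever their values. The genes and lists were chosen with earlier results of these data known. Lists of further Nrf2 pathway genes and of cell type markers were held by symbol, could not be joined to Ensembl IDs and are not reported. Positions were taken by symbol from the RefSeq table of GRCm38.p6, and 10 of 10 symbols matched.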

Additional observations from a re-analysis of the deposited data

How the results depend on the processing

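Under the 13 alternatives, Nfe2l2 and Gclc kept direction and call in each, and Keap1, Srxn1 and Gpx4 kept direction and stayed short of the threshold in each. Gclm lost its call in 8, with log2 fold changes of -0.28 with total counts only, -0.34 with the replicate block (adjusted p = 0.135) and -0.38 to -0.31 when 1 library was left out. With 1 library left out, Txnrd1 ranged from -0.51 to -0.38, Nqo1 from -1.43 to -0.84, Slc7a11 from -0.42 to 0.023 and Hmox1 from -0.28 to 0.71. With the replicate block, Hmox1 reversed to -0.64 (adjusted p = 0.0384) and Nqo1 was at -0.61 (adjusted p = 0.440). By its construction that fit takes the host difference from obese 1 and 3 and lean 1 and 3 only, the numbers that occur in both groups. The deviations of these like-numbered libraries correlated at 0.090 and 0.074, the highest of the 9 pairs between groups (the other pairs ranged from -0.131 to 0.066) but under 0.1, so a pairing was not established. With the block, 4 of the 10 genes and 2087 of all genes were called. These 4 were Nfe2l2, Gclc, Txnrd1 and the reversed Hmox1, without Gclm, so they were not the same 4 as in the main fit. Leaving out 1 library gave 2 to 4 called genes of the 10 (1 to 3 lower) and 1179 to 3066 over all genes (567 to 1468 higher, 612 to 1598 lower), where the fit with 6 libraries called 2991. The cause of these shifts was not tested. The pathway list was not run, since it could not be joined to the IDs. Nqo1 had 12 to 52 counts per library and a biological coefficient of variation of 30.6%; the parts of depth and of spread between libraries in its error were not tested. Pairs of libraries of 1 group had a mean chi-square per gene of 7.50 to 14.8, where sampling noise alone gives about 1. None was therefore counted as the same library sequenced again. The measure cannot show whether libraries came from separate mice, since pieces of the same tumor could differ by more than sampling noise too.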
